A study of Mus musculus with 16 samples.

Results

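Silenced cortical neurons in which an shRNA targeted c-Fos were set against silenced neurons with a control shRNA, before either culture had been depolarised. The members were chosen by array title alone, as every array titled c-Fos shRNA or control shRNA at 0 h of KCl, which gave 4 of the 16 arrays of the study, 2 from each arm. In the c-Fos shRNA arm a lentivirus delivered an shRNA against c-Fos, and in the control shRNA arm it delivered an shRNA against firefly luciferase, a gene that mouse cells do not have. Both arms shared everything else that the labels describe. The cultures came from cortices of C57BL/6 embryos at embryonic day 16.5, virus was applied on day 5 in vitro for 6 h with polybrene at 6 µg per ml, and total RNA was taken on day 7 from neurons that had been silenced by an agent the labels do not name. The other 12 arrays carried the same shRNAs after 1, 3 or 6 h of KCl and enter below only through the shared estimate of spread and through 1 comparison. The labels describe a single virus for each arm, so an effect of lower c-Fos and an effect of that particular shRNA cannot be told apart. Within a group the 2 arrays are titled as biological replicates, and no label says whether each had a dissection of its own, so the p-values below measure only how far these arrays lie apart.

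c-Fos, the product of the gene Fos, pairs with a Jun protein to form AP-1, a transcription factor that binds a short palindromic site in promoters and enhancers. In neurons kept silent Fos is transcribed little, and depolarisation induces it within minutes through calcium entry. The design has this 0 h pair as the starting point from which the depolarised arrays depart, and it asks which genes already differ between the arms at rest.

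Expression was read on single-colour Affymetrix mouse genome 430 2.0 arrays, which measure each gene through 1 or more probe sets. The deposited value is a linear intensity. Below, intensities are given as deposited, one for each array in the order replicate 1 and replicate 2, and differences are c-Fos shRNA minus control shRNA on the scale of log2(intensity + 16) after quantile normalization, with their standard error (n = 2 arrays a group). That scale understates the change of dim genes. Each gene was represented by its brightest probe set, 13915 genes were bright enough to test, and calls were made in limma where the p-value, adjusted by Benjamini-Hochberg, was below 0.05. Across these genes the c-Fos arrays correlated at 0.993 with each other, the control arrays at 0.992, and arrays of different arms at 0.977 to 0.984.

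The labelled cell type was borne out by its markers. The neuronal tubulin gene Tubb3 had intensities of 12933 and 12447 with c-Fos shRNA, against 11811 and 12471.5 with control shRNA, the dendritic microtubule gene Map2 of 13739.8 and 14131 with c-Fos shRNA, against 12594 and 14249 with control shRNA, and the growth cone gene Stmn2 of 16819.5 and 17633 with c-Fos shRNA, against 18280.3 and 18118 with control shRNA. Glial markers were present as well. The astrocyte gap junction gene Gja1 stood at 4105 and 4704 with c-Fos shRNA, against 4202 and 4831 with control shRNA, and the oligodendrocyte lineage factor gene Olig1 at 7288 and 7705 with c-Fos shRNA, against 6267 and 8296 with control shRNA, while the microglial receptor gene Csf1r was dim at 133 and 174 with c-Fos shRNA, against 119 and 201 with control shRNA. In a mixed culture fewer cells of a type and less RNA per cell cannot be told apart, and this holds for every difference below. The 3′ control probe set for 18S ribosomal RNA was lower in both c-Fos arrays, at 4439 and 4191, than in both control arrays, at 5004 and 4805, while the arms overlapped in its 5′ probe set (6827 and 5352 with c-Fos shRNA, against 9307 and 6370.4 with control shRNA) and its middle one (3550.5 and 2528.5 with c-Fos shRNA, against 4896 and 3184.5 with control shRNA). Within each replicate number the c-Fos array was the lower one in all of these probe sets. The part of 18S RNA in the results was not tested. The median intensity of the 4 arrays ran from 108.1 to 115.8.

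Fos itself was lower in silenced neurons with the c-Fos shRNA. Its intensities were 118 and 152 with c-Fos shRNA, against 261 and 232 with control shRNA, and the arms did not overlap. The difference was -0.77 ± 0.10, limma adjusted p = 0.000172, and it stayed past the threshold in each of the 14 alternative settings tried, between -0.89 and -0.62. Fos was dim at rest in both arms, and its control level lay at the 31.9th percentile of the tested genes, so the log2 scale understates the difference.

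Many genes besides Fos differed before any KCl. Of 13915 genes 3103 were called (22.3%), 1675 of them higher (12%) and 1428 lower (10.3%) with c-Fos shRNA. Most of the differences were small. Among called genes the median absolute difference was 0.51 on the log2 scale, and 1492 of them differed by less than 0.5. Called differences of at least 2-fold were found in 221 genes that were higher (1.59%) and 129 that were lower (0.927%), and over all tested genes the median difference was 0.018. The arms did not overlap in 8087 genes (58.1%), so separated arms, given below for single genes, are common over all genes. The number called was 1867 without control replicate 1 and 2010 without c-Fos replicate 1, and it was 5396 with the replicate number as a block, 2832 higher and 2564 lower. Among the autosomes and the X the share of genes called ran from 16.7% on chromosome 17 to 27.0% on chromosome 16.

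**Figure D1:**
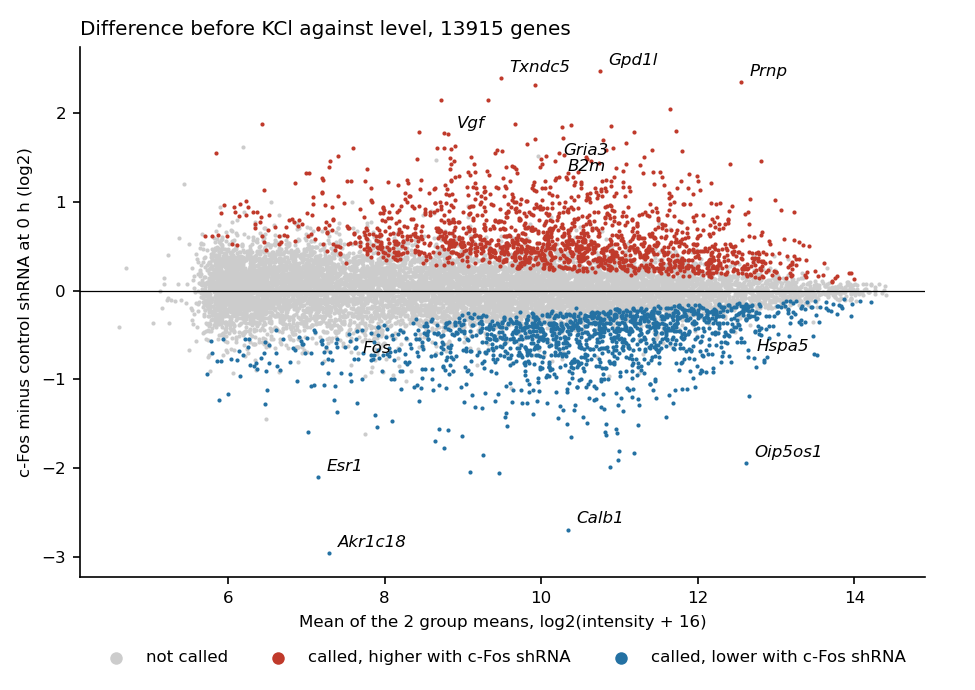
Difference between the arms before KCl plotted against level, one point for each of 13915 genes. The x axis is the mean of the 2 group means of log2(intensity + 16) and the y axis is c-Fos minus control shRNA on the same scale, with called genes in red (1675 higher) and blue (1428 lower) and the others in grey. The called genes lie at all levels, the largest rises near 2.47 (Gpd1l) and the largest falls near -2.95 (Akr1c18), while Fos at -0.77 is a moderate fall.

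The 15 largest rises were led by a lipid enzyme, a protein folding enzyme and the prion protein. These rises, and the falls below, were taken only from called genes whose arms did not overlap. Separated arms in them are thus given by that choice. Gpd1l encodes a glycerol-3-phosphate dehydrogenase that links sugar breakdown to lipid synthesis, and its intensities were 3845 and 4144 with c-Fos shRNA, against 625 and 836 with control shRNA. Txndc5, a disulfide isomerase of the endoplasmic reticulum (ER), measured 1597 and 1641 with c-Fos shRNA, against 289 and 319.5 with control shRNA. For Prnp, which encodes the prion protein of the neuronal surface, the values were 12885 and 14029 with c-Fos shRNA, against 2216 and 3071 with control shRNA. In all 3 genes both c-Fos arrays lay several times above both control arrays, with differences of 2.47 ± 0.19, limma adjusted p = 2.99e-06 for Gpd1l, 2.39 ± 0.15, limma adjusted p = 7.35e-07 for Txndc5 and 2.35 ± 0.30, limma adjusted p = 0.000151 for Prnp. The secreted glycoprotein gene Fstl1 followed with intensities of 1826 and 2484 with c-Fos shRNA, against 381 and 483 with control shRNA, a difference of 2.31 ± 0.22.

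Several of the other large rises encode enzymes of sugar chains and membrane anchors. B3glct, which adds glucose to fucose on thrombospondin repeats, stood at 1239 and 1382 with c-Fos shRNA, against 272 and 316 with control shRNA (2.14 ± 0.17). Ust, a uronyl sulfotransferase that sulfates chondroitin and dermatan chains, stood at 824 and 932 with c-Fos shRNA, against 159 and 225 with control shRNA (2.14 ± 0.16). Pigq, a subunit of the enzyme that starts the synthesis of glycosylphosphatidylinositol anchors, stood at 1954 and 2635 with c-Fos shRNA, against 562 and 739 with control shRNA (1.84 ± 0.27). The c-Fos arrays of these 3 genes all exceeded the control arrays. Npnt, a matrix ligand of integrins, had intensities of 660 and 608 with c-Fos shRNA, against 188 and 164 with control shRNA, a difference of 1.78 ± 0.13.

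The remaining rises on this list cover signalling, RNA processing and trafficking. Pik3r3, a regulatory subunit of phosphoinositide 3-kinase, measured 2433 and 2563 with c-Fos shRNA, against 591 and 804 with control shRNA (1.86 ± 0.13). Pop7, a protein subunit of the ribonucleases P and MRP, measured 1485 and 1569 with c-Fos shRNA, against 393 and 439 with control shRNA (1.88 ± 0.18). Trappc2, a subunit of the vesicle tethering complex TRAPP, measured 3473 and 3579.6 with c-Fos shRNA, against 890.3 and 1064 with control shRNA (1.85 ± 0.16). The arms were apart in each. Gda, the guanine deaminase cypin that acts on dendrite branching, differed by 1.80 ± 0.33, Smim13, a small membrane protein gene, by 2.04 ± 0.16, and Nipsnap3b, a gene of the NIPSNAP family, by 1.79 ± 0.07. Capsl was near the dimmest tested genes in control cultures, at 122.5 and 181 with c-Fos shRNA, against 19.7 and 42 with control shRNA, and its difference of 1.87 ± 0.44 was not called without c-Fos replicate 2 (1.66, limma adjusted p = 0.0685) or without control replicate 1 (1.52, limma adjusted p = 0.0869).

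The 15 largest falls were led by a steroid enzyme, a calcium buffer and a hormone receptor. Akr1c18, a reductase that converts progesterone to an inactive form, had intensities of 36.2 and 45.5 with c-Fos shRNA, against 581 and 313 with control shRNA, and the control replicates themselves differed. Calb1 encodes calbindin, a cytosolic calcium buffer of particular neuron types, and stood at 442 and 574 with c-Fos shRNA, against 3239.8 and 3209 with control shRNA. Esr1, the estrogen receptor alpha gene, stood at 50.8 and 54.9 with c-Fos shRNA, against 273 and 296 with control shRNA. All 3 were several times lower in both c-Fos arrays than in either control array, by -2.95 ± 0.48, limma adjusted p = 0.000828 for Akr1c18, -2.69 ± 0.11, limma adjusted p = 4.3e-08 for Calb1 and -2.10 ± 0.18, limma adjusted p = 9.32e-06 for Esr1. Grp, which encodes gastrin-releasing peptide, was also lower, at 245 and 463 with c-Fos shRNA, against 1338 and 1492 with control shRNA (-2.05 ± 0.38, limma adjusted p = 0.002).

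Bright transcripts were among the falls. Oip5os1, a long noncoding RNA also known as Cyrano, measured 2928 and 3338 with c-Fos shRNA, against 11933 and 12138 with control shRNA, and in control cultures it lay at the 99.0th percentile of the tested genes. Its difference was -1.94 ± 0.11, limma adjusted p = 4.23e-07. Rgs17 and Rgs8 belong to the RGS family, which speeds the turning off of G proteins. Rgs17 measured 1067 and 1382.5 with c-Fos shRNA, against 4426 and 4139.9 with control shRNA (-1.83 ± 0.13), and Rgs8 measured 185 and 263 with c-Fos shRNA, against 785 and 796 with control shRNA (-1.77 ± 0.13). In each of these 3 genes the higher c-Fos array was well below the lower control array. Lpgat1, an acyltransferase of phospholipid synthesis, stood at 994 and 1073 with c-Fos shRNA, against 3941 and 3714.5 with control shRNA (-1.91 ± 0.08), and Pafah1b2, a catalytic subunit of an enzyme that breaks down platelet-activating factor, at 1075.5 and 1061 with c-Fos shRNA, against 3724 and 3681 with control shRNA (-1.81 ± 0.08). Dtd1, an enzyme that removes D-amino acids from mischarged transfer RNA, stood at 849 and 1024 with c-Fos shRNA, against 3501 and 3804 with control shRNA (-1.99 ± 0.24). The rest of the list was made up of Auh, an RNA-binding enzyme of leucine breakdown (-1.85 ± 0.17), Olfm3, a secreted olfactomedin (-1.69 ± 0.22), Dcun1d4, a cofactor of neddylation (-1.65 ± 0.09), Flrt1, a cell adhesion molecule of the latrophilin-binding family (-1.64 ± 0.21), and Fam149b (-2.04 ± 0.14).

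**Figure D2:**
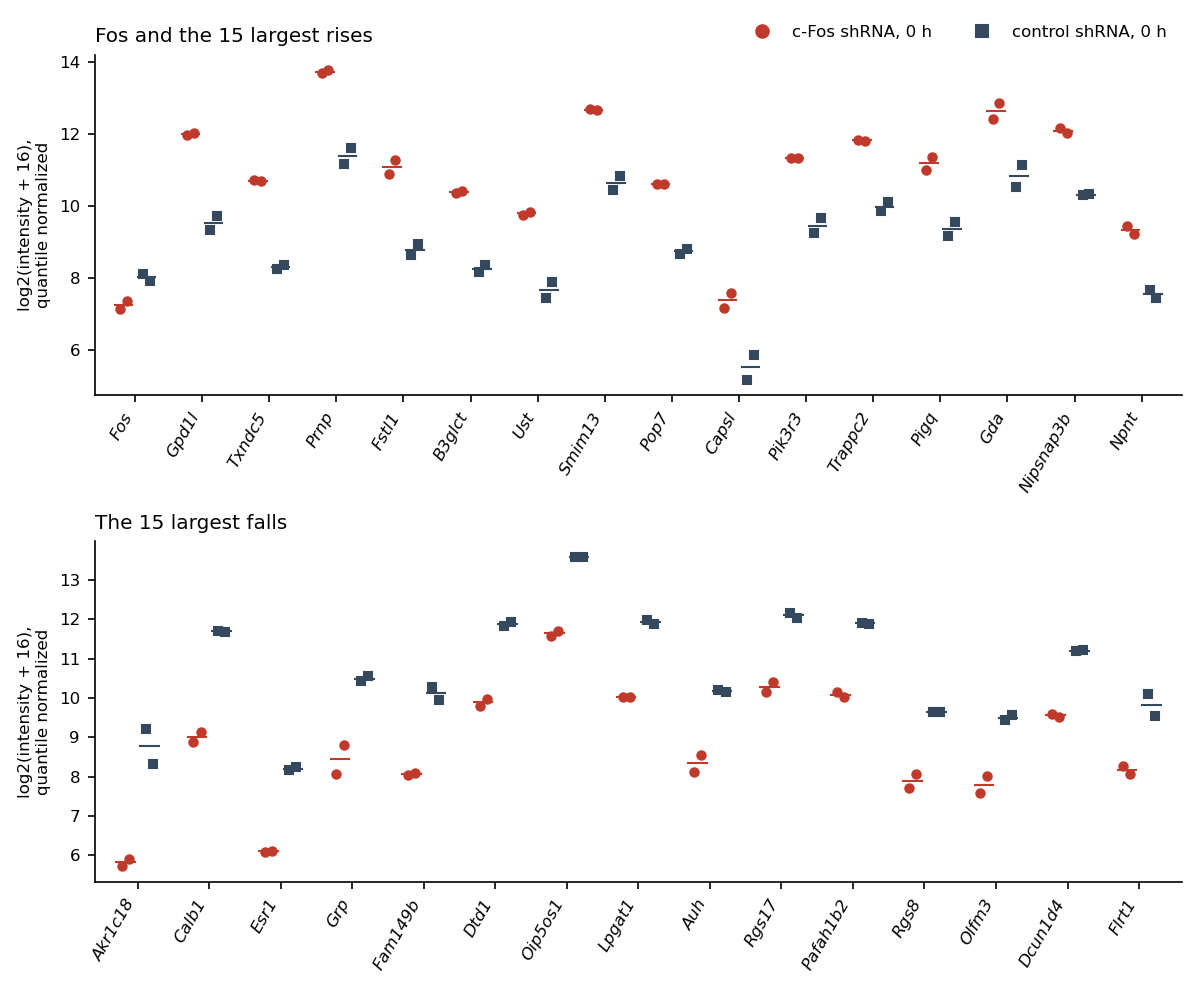
Fos and the 15 largest rises (top) and the 15 largest falls (bottom) in silenced neurons, as log2(intensity + 16) after quantile normalization. Red circles are the 2 c-Fos shRNA arrays, dark squares the 2 control shRNA arrays, and lines the group means. The rises and falls were picked among genes whose c-Fos arrays lie wholly on one side of the control arrays, so their separation is given by that choice. Fos was not picked that way, and its arms are apart as well. In every gene shown the gap between arms exceeds the gap between replicates.

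Second probe sets of these genes agreed in some cases and not in others. Other probe sets also rose for Gpd1l (2.36), Prnp (2.47), Txndc5 (2.02), Fstl1 (2.22), Gda (1.55 and 1.73) and Pigq (0.76 to 1.82 over 4 probe sets), and fell for Rgs17 (-1.78), Flrt1 (-1.65) and Olfm3 (-1.38). A dimmer probe set of Auh went the other way and was called higher (0.73, limma adjusted p = 0.00816), while another fell (-1.24). For Pafah1b2 a probe set fell by 1.90, but 2 others were not called, at 0.06 and -0.38. The same held for Calb1, where 2 dim probe sets fell (-1.16 and -1.71) and 1 gave 0.08, and for Esr1, where 1 fell (-1.95) and 1 gave 0.01. Probe sets that were not called gave 0.52 for Ust, 0.41 and -0.11 for Npnt beside a rise of 1.96, -0.23 for Fam149b beside a fall of 0.80, -0.37 for Oip5os1 beside a fall of 3.10, -0.46 for Lpgat1 beside 3 falls from -2.18 to -1.52, and -0.56 and 0.05 for Auh. Probe sets of one gene can lie on different transcript ends, and which transcripts these detect was not tested. Over the genome 6802 genes had several tested probe sets, and in 40 of them probe sets were called in opposite directions.

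Promoters were searched for the AP-1 site because the shRNA targets a subunit of AP-1. The windows were RefSeq promoters of build GRCm38.p6, 300 bases each that run from upstream of a start to shortly after it, and the site searched on both strands was TGACTCA, the 7-base consensus. Of the 30 genes named above, Prnp and Rgs17 hold it, and they differ in opposite directions. They are shown 5′ to 3′ on the gene's strand with the AP-1 site in capitals, Prnp at chr2:131909678-131909977 on the plus strand with its site starting 102 bases before the start, and Rgs17 at chr10:5922351-5922650 on the minus strand with its site starting 122 bases before the start.
Prnp: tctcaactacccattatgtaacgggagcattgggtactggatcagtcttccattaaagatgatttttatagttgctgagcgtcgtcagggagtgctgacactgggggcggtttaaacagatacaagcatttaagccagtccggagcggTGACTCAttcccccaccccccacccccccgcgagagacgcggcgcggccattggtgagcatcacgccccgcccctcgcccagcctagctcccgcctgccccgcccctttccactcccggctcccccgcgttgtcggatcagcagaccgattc
Rgs17: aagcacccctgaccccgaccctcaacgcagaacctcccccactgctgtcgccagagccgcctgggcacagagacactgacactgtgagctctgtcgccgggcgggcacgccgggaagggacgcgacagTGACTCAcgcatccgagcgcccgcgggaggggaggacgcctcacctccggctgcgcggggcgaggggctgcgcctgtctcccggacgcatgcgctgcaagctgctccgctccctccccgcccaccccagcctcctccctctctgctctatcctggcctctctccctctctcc
The site was found in 3.45% of 1361 genes that were higher, 4.35% of 1150 that were lower and 4.75% of 8667 that were not called, and in 4.55% of all 11178 tested genes with a window. Among genes with differences of at least 2-fold it was in 4.57% of 175 higher and 5.21% of 96 lower genes, and in all 32851 RefSeq windows in 5.2%. The cyclic AMP response element TGACGTCA, an 8-base site that overlaps in sequence with the AP-1 site without containing it, was in 3.01% of the higher, 4.26% of the lower and 3.37% of all tested genes with a window. A match is a run of letters and not a bound site.

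The genes of AP-1 and of the early activity response were next read as lists, against the background that 22.3% of all tested genes were called. Of 11 AP-1 subunits 1 rose, Fosl2, and 1 fell, Fos, with a median difference of 0.25, and with the replicate block 5 rose and 2 fell, while with probe sets averaged 0 rose and 1 fell. Fosl2, a Fos family member that can take the place of c-Fos beside Jun proteins, had intensities of 1201 and 1941 with c-Fos shRNA, against 722 and 899 with control shRNA, both c-Fos arrays being higher (0.93 ± 0.16, limma adjusted p = 0.00115). Its second probe set gave 0.28 and was not called. Jun had intensities of 1752 and 2181 with c-Fos shRNA, against 1288 and 1813 with control shRNA and Jund of 4424 and 4632 with c-Fos shRNA, against 4081 and 4409 with control shRNA, with differences of 0.35 and 0.08 that were not called (for Jun limma adjusted p = 0.158, and 0.000527 with the replicate block). Fosb was at the floor of the array in all 4 cultures, at 16.8 and 28.4 with c-Fos shRNA, against 23.1 and 14 with control shRNA.

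Early-response transcription factors, which neurons switch on within an hour of activity, went both ways at rest. Of 19 tested, 4 rose and 4 fell (42.1% called), with a median difference of -0.10 against 0.018 over all genes. Nr4a3, an orphan nuclear receptor gene, measured 1998.5 and 2244 with c-Fos shRNA, against 983 and 1113 with control shRNA (1.02 ± 0.08), and Egr3, a zinc finger factor gene, measured 1064 and 1399.5 with c-Fos shRNA, against 599 and 745 with control shRNA (0.88 ± 0.17). Lower were Klf10 at 557.5 and 843 with c-Fos shRNA, against 1419.6 and 1902 with control shRNA (-1.27 ± 0.20), Egr2 at 163 and 198.5 with c-Fos shRNA, against 405 and 362 with control shRNA (-0.99 ± 0.14) and the dim Egr4 at 36 and 34.4 with c-Fos shRNA, against 89.4 and 81 with control shRNA (-0.96 ± 0.21). The arms were apart in each of these 5 genes. Second probe sets gave 0.04 for Nr4a3 and -0.71 for Egr3, neither called, and with probe sets of a gene averaged 0 rose and 4 fell. Npas4, an activity-dependent factor confined to neurons, measured 91.2 and 124 with c-Fos shRNA, against 126 and 133 with control shRNA and was not called (-0.21), nor was Egr1 at 603 and 1178 with c-Fos shRNA, against 593 and 725 with control shRNA (0.37).

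Of 19 early-response effectors 4 rose and 3 fell (36.8% against the background of 22.3%), with a median difference of 0.04. Dusp6, Dusp4 and Dusp1, phosphatases that turn off MAP kinases, rose together by 0.66, 0.45 and 0.41, with intensities for Dusp6 of 1289.7 and 1357 with c-Fos shRNA, against 750.2 and 933 with control shRNA. Sik1, a salt-inducible kinase gene, fell (-0.55), as did Gadd45b (-0.53) and Plk2 (-0.28). The list held 1 rise and 2 falls with only the 4 arrays without KCl in the fit, 2 rises and 0 falls without control replicate 1, and 6 rises and 5 falls with the replicate block. Among 17 late activity-induced effectors only Vgf rose and only Scg2 fell (11.8%), around a median of 0.05. Vgf, the precursor of secreted peptides with neurotrophic action, had intensities of 778 and 865 with c-Fos shRNA, against 221 and 246 with control shRNA (1.76 ± 0.06, limma adjusted p = 2.24e-08). Scg2, which encodes secretogranin II, had 2959 and 2858 with c-Fos shRNA, against 4279 and 4185 with control shRNA (-0.54 ± 0.06). Bdnf, the neurotrophin gene, varied more within the arms than between them, at 93.6 and 183 with c-Fos shRNA, against 90.7 and 145 with control shRNA, and was not called (0.20). With the replicate block 2 late effectors rose and 3 fell.

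In a list of 15 genes described as AP-1 targets, 2 rose and 2 fell, 26.7% against the background of 22.3%, with a median of -0.04. Cav1, the caveolin-1 gene, measured 878 and 796 with c-Fos shRNA, against 262 and 261 with control shRNA (1.63 ± 0.16, limma adjusted p = 1.75e-05), and Plat, the tissue plasminogen activator gene, 982 and 938 with c-Fos shRNA, against 691 and 689.5 with control shRNA (0.48 ± 0.10). Lower were the cyclin D1 gene Ccnd1 at 1367 and 1744 with c-Fos shRNA, against 3245 and 3369 with control shRNA (-1.11 ± 0.11) and Emp1, an epithelial membrane protein gene, at 46.6 and 37.2 with c-Fos shRNA, against 89.4 and 89.7 with control shRNA (-0.84 ± 0.21). Ccnd2, whose product cyclin D2 serves the same step of the cell cycle, differed in the other direction, at 3963 and 5009 with c-Fos shRNA, against 2083 and 2259 with control shRNA (1.04 ± 0.09). In all 5 genes the arms did not overlap, as in 58.1% of all tested genes.

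Neuropeptide genes changed little as a group. Of 18 tested, 1 was called (5.6%, median -0.03), the fall of Grp already given, and 1 rose and 3 fell with the replicate block. Npy, neuropeptide Y, stood at 3577 and 3258 with c-Fos shRNA, against 3601 and 3029 with control shRNA, and Sst, somatostatin, at 3828 and 3554 with c-Fos shRNA, against 4093 and 3513 with control shRNA, with differences of 0.04 and -0.05. Of 10 genes whose products store and process peptides 3 rose and 2 fell (50% against the background of 22.3%), with a median of 0.02. Besides Vgf and Scg2 these included Pam, the enzyme that amidates peptides, at 1115 and 1360.5 with c-Fos shRNA, against 666.5 and 702 with control shRNA (0.86 ± 0.11), and Chga, chromogranin A (0.36). The count was 2 higher and 1 lower without control replicate 2.

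Nuclear receptors gave 3 falls and 0 rises among 20 tested (15%, median -0.08). Nr1d2, the clock repressor REV-ERB beta, measured 808 and 1026 with c-Fos shRNA, against 2416 and 2658 with control shRNA (-1.49 ± 0.14, limma adjusted p = 1.75e-05), and Esrrg, an estrogen-related receptor gene, 169.7 and 230.2 with c-Fos shRNA, against 393.5 and 391.9 with control shRNA (-0.91 ± 0.12), beside Esr1. Thra, the main neuronal thyroid hormone receptor gene, stood at 11286 and 11689 with c-Fos shRNA, against 9861 and 12038 with control shRNA and was not called. Nr1d2 was also 1 of 4 falls among 15 circadian clock genes, where 1 gene rose and the median difference was -0.30 (33.3% called against the background of 22.3%). Clock, the partner of the activator BMAL1, stood at 632 and 629 with c-Fos shRNA, against 1294.5 and 1230 with control shRNA (-1.01 ± 0.10), and Cry1, a repressor, at 1134 and 1036 with c-Fos shRNA, against 653 and 607 with control shRNA (0.79 ± 0.12). With the replicate block 2 nuclear receptors rose and 5 fell, and 2 clock genes rose and 7 fell. Without control replicate 2 the nuclear receptors gave 1 rise and 4 falls.

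Receptor and channel genes of the neuronal membrane differed one by one, in both directions. Of 10 AMPA receptor subunits and auxiliary proteins 2 rose and 2 fell (40% against the background of 22.3%), with a median of -0.23, and with the block 2 rose and 5 fell. Gria3 had intensities of 1768 and 2025 with c-Fos shRNA, against 668 and 713 with control shRNA (1.46 ± 0.12, limma adjusted p = 6.38e-06), and Gria1 of 2552.5 and 3095 with c-Fos shRNA, against 4659 and 4142 with control shRNA (-0.65 ± 0.10, limma adjusted p = 0.000444). Gria2, the subunit that makes the receptor impermeable to calcium, showed overlapping arms at 8136 and 8919 with c-Fos shRNA, against 8360.4 and 8979 with control shRNA (-0.04). The arms were thus apart for Gria3 and Gria1 in opposite directions. A second probe set fell too for Gria1 (-0.94) and gave 0.64, not called, for Gria3. The cornichon genes, auxiliary proteins of the same receptors, split as well, with Cnih2 at 0.50 ± 0.10 and Cnih3 at -0.59 ± 0.11.

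Of 40 potassium channel genes 7 rose and 5 fell (30%, median 0.06). The rises were led by Kcnv1, a silent modulatory subunit, at 670.3 and 916.5 with c-Fos shRNA, against 342 and 347 with control shRNA (1.17 ± 0.16), Kcnt2, a sodium-activated channel, at 689.8 and 946 with c-Fos shRNA, against 337 and 455 with control shRNA (1.03 ± 0.23), and Kcnj3, a G protein-gated channel, at 1217 and 1474 with c-Fos shRNA, against 581 and 849 with control shRNA (0.94 ± 0.20). The arms were apart in these genes although the replicates differed. The falls were led by Kcnq5, which carries part of the M current, at 1117 and 1270.3 with c-Fos shRNA, against 2249 and 1846 with control shRNA (-0.77 ± 0.11). Without c-Fos replicate 2 the counts were 5 and 2, and without control replicate 1 they were 4 and 2, and with arrays only scaled to a common median 7 and 2. A second probe set of Kcnc1, one of the falls, was called higher (0.48).

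Voltage-gated sodium and calcium channel genes and the HCN family gave 2 rises and 4 falls among 22 (27.3%, median -0.08), and 4 and 8 with the block. Scn2a, the sodium channel of the axon initial segment of excitatory neurons, measured 2959 and 3560.1 with c-Fos shRNA, against 5551 and 5270 with control shRNA (-0.74 ± 0.08, limma adjusted p = 3.02e-05). Scn1a, whose product carries the sodium current of many inhibitory neurons, measured 990.3 and 924 with c-Fos shRNA, against 2248.5 and 1802 with control shRNA (-1.08 ± 0.28), and 2 other probe sets of it were not called (0.24 and 0.08). Cacna1a, the pore of the P/Q-type calcium channel that triggers transmitter release, was dimmer and higher, at 342.5 and 335 with c-Fos shRNA, against 179 and 171 with control shRNA (0.91 ± 0.15). The control arrays were the higher ones for both sodium channels and the lower ones for Cacna1a. Other probe sets of Cacna1a gave 0.14, -0.14 and 0.2 and were not called. Without control replicate 1 the list gave 1 rise and 2 falls.

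Synapse genes also went both ways. The shares called were 30% for vesicle and SNARE genes, 26.3% for scaffold genes and 22.7% for organisers, against the background of 22.3%. Of 30 vesicle and SNARE genes 6 rose and 3 fell (median -0.03), with the block 11 rose and 8 fell, and with probe sets averaged the balance turned, with 2 rises and 5 falls. Vamp1, a vesicle SNARE, stood at 399 and 512 with c-Fos shRNA, against 171 and 252 with control shRNA (1.07 ± 0.21), and the more abundant Vamp2 at 9601 and 9849.6 with c-Fos shRNA, against 8720 and 8540.3 with control shRNA (0.17 ± 0.04). Lower were the calcium sensor gene Syt7 at 3781 and 3968 with c-Fos shRNA, against 5604 and 5142 with control shRNA (-0.48 ± 0.07) and the release clamp gene Cplx1 at 5462 and 5877 with c-Fos shRNA, against 7361 and 8347 with control shRNA (-0.47 ± 0.07). Among 19 postsynaptic scaffold genes 2 rose and 3 fell (median -0.09), including Dlgap1, a partner of PSD-95, at 3847 and 3819 with c-Fos shRNA, against 2045 and 1959 with control shRNA (0.93 ± 0.06, limma adjusted p = 1.57e-06), and Camk2d, a kinase subunit, at 514 and 865 with c-Fos shRNA, against 1316 and 1618 with control shRNA (-1.13 ± 0.23). Of 22 synaptic organisers 1 rose and 4 fell (median -0.14), led by the neurexin gene Nrxn3 at 1542 and 1841.5 with c-Fos shRNA, against 3198 and 3278 with control shRNA (-0.95 ± 0.15). Second probe sets gave -0.01 for Vamp1 and 0.29 for Vamp2, neither called. For Camk2d another probe set fell (-0.89), while the rest gave -0.42 to -0.36 and were not called. With the block the scaffold list held 5 rises and 8 falls and the organisers 3 and 9. Without control replicate 1 they held 1 and 2, and 0 and 2, and without c-Fos replicate 1 they held 2 and 1, and 0 and 3. The scaffold list held 3 and 2 without control replicate 2.

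Axon guidance genes were called in 16 of 40 cases, 40% against the background of 22.3%, with 6 rises, 10 falls and a median difference of -0.12. Sema3e, a secreted repellent, was dim and higher, at 186.5 and 194 with c-Fos shRNA, against 51.3 and 88.3 with control shRNA (1.32 ± 0.24), and Sema7a, a membrane-anchored semaphorin, stood at 872 and 740 with c-Fos shRNA, against 465 and 421 with control shRNA (0.85 ± 0.18). Nrp1, the receptor of class 3 semaphorins and of VEGF, measured 1316.5 and 1646 with c-Fos shRNA, against 3232 and 3151 with control shRNA (-1.12 ± 0.10, limma adjusted p = 1.5e-05), and Efnb3, an ephrin that repels crossing axons, 2108 and 2683 with c-Fos shRNA, against 5035 and 5234.5 with control shRNA (-1.11 ± 0.13, limma adjusted p = 6.26e-05). Unc5d, a netrin receptor gene, fell by 0.80. The arms of all 5 genes were apart, Sema3e and Sema7a upward and the other 3 downward. With the block 10 rose and 18 fell.

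Matrix genes and the enzymes that build its sugar chains were called in both directions. Of 26 genes of the extracellular matrix 5 rose and 2 fell, 26.9% against the background of 22.3%. Their median was -0.04, with 12 differences above 0 and 14 below. Vcan, the chondroitin sulfate proteoglycan versican, measured 4557 and 4371 with c-Fos shRNA, against 2405 and 2090.4 with control shRNA (0.98 ± 0.10, limma adjusted p = 2.65e-05), and Has3, a hyaluronan synthase gene, 553 and 395 with c-Fos shRNA, against 186 and 204 with control shRNA (1.21 ± 0.20), beside Fstl1 and Npnt. Col4a2, a basement membrane collagen gene, measured 478 and 777 with c-Fos shRNA, against 1159.5 and 1535 with control shRNA (-1.14 ± 0.37), and Tnr, tenascin-R of perineuronal nets, fell by 0.59. Of 39 glycosyltransferases and proteoglycan sulfotransferases 10 rose and 4 fell (35.9%), with a median difference of 0.12. Hs3st2, a heparan sulfate 3-O-sulfotransferase, stood at 2742 and 2519 with c-Fos shRNA, against 1106 and 1126 with control shRNA (1.23 ± 0.16, limma adjusted p = 0.000158), Chst8, which sulfates hormone sugars, at 542 and 633 with c-Fos shRNA, against 252 and 261 with control shRNA (1.16 ± 0.12), and Chst15, which oversulfates chondroitin, at 745 and 790.1 with c-Fos shRNA, against 410.4 and 378 with control shRNA (0.95 ± 0.15). In these 3 genes both c-Fos arrays were above both control arrays. St8sia2, a polysialic acid synthase of developing neurons, was among the falls, at 4979 and 4423 with c-Fos shRNA, against 6878 and 6913 with control shRNA (-0.58 ± 0.08). With the block the matrix list held 8 rises and 7 falls and the enzymes 15 and 10, and the enzymes held 6 and 3 without c-Fos replicate 1. Other probe sets of Vcan gave -0.03 to 0.67 and were not called.

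The ER showed rises among its stress sensors and its degradation machinery, together with a fall of its main chaperone. Of 17 genes of these sensors and of ER-associated degradation 8 rose and 1 fell, 52.9% called against the background of 22.3%, with a median difference of 0.32. Wfs1, an ER membrane protein whose loss causes Wolfram syndrome in humans, measured 1812 and 2419 with c-Fos shRNA, against 566 and 927 with control shRNA (1.53 ± 0.34). Sel1l, the adaptor of the ubiquitin ligase HRD1, measured 3908 and 4127 with c-Fos shRNA, against 2452 and 2819 with control shRNA (0.61 ± 0.14), and Selenos, a selenoprotein of the same machinery, 4177 and 4199 with c-Fos shRNA, against 2647.5 and 3052 with control shRNA (0.55 ± 0.10). Xbp1, a transcription factor of the unfolded protein response, differed by 0.32 ± 0.10, and Eif2ak3, the sensor kinase PERK, by 0.42 ± 0.12. Atf6, a sensor of its own branch, fell, at 422 and 445 with c-Fos shRNA, against 627 and 656 with control shRNA (-0.56 ± 0.10). These counts rest on few arrays. They were 4 and 1 without c-Fos replicate 1, 2 and 1 without c-Fos replicate 2, and 1 and 1 without control replicate 1. A second probe set of Derl1, one of the rises, was called lower (-0.33).

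Of 27 ER chaperones and folding enzymes 7 rose and 3 fell (37% against the background of 22.3%), with a median of 0.10. Manf, a secreted ER stress protein with neurotrophic action, stood at 4697 and 4513 with c-Fos shRNA, against 2250.3 and 2142 with control shRNA (1.06 ± 0.11, limma adjusted p = 2.77e-05), and Ero1a, the oxidase that drives disulfide formation, at 1208 and 1295 with c-Fos shRNA, against 643 and 754 with control shRNA (0.85 ± 0.13). Hspa5, the chaperone BiP that is the usual marker of the unfolded protein response, stood at 4839.6 and 4878 with c-Fos shRNA, against 8375 and 7881 with control shRNA (-0.75 ± 0.08, limma adjusted p = 3.56e-05). It was lower in both c-Fos arrays, as were the co-chaperone gene Dnajb9 (-0.56) and the disulfide isomerase gene P4hb (-0.46). A second probe set of Hspa5 fell too (-0.82), and another gave 0.04.

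Genes of the integrated stress response, the program that the factor ATF4 drives when translation is slowed, rose in 6 of 19 cases and fell in 0, with a median of 0.16. The share called was 31.6%, against the background of 22.3%. Atf4 measured 5432 and 6851 with c-Fos shRNA, against 3795 and 4993.5 with control shRNA (0.48 ± 0.11), Ddit3, the CHOP gene, 654 and 883 with c-Fos shRNA, against 492 and 539 with control shRNA (0.55 ± 0.12), and Chac1, which degrades glutathione, 732 and 1105 with c-Fos shRNA, against 299 and 410.5 with control shRNA (1.34 ± 0.37). Trib3, a pseudokinase gene that CHOP induces, was dim, at 183 and 215 with c-Fos shRNA, against 65.1 and 111 with control shRNA (1.10 ± 0.25). In each of these 4 the lower c-Fos array was above the higher control array. Second probe sets gave 0.19 for Atf4 and -0.15 for Ddit3, neither called, while that of Trib3 also rose (0.69). Asns, the asparagine synthetase gene and a standard ATF4 target, measured 6746.5 and 7614 with c-Fos shRNA, against 6168 and 6672 with control shRNA and was not called (0.14). The count was 3 without c-Fos replicate 2 and 2 without control replicate 1, and with the block 9 rose and 1 fell.

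The ATF4 program also covers amino acid supply, and there 10 of 30 genes rose and 1 fell (36.7% against the background of 22.3%). Of the 30, 25 had a difference above 0, and the median was 0.26. The transfer RNA synthetase gene Kars measured 2564 and 2482 with c-Fos shRNA, against 1584 and 1589 with control shRNA (0.67 ± 0.09, limma adjusted p = 0.000201), and Wars 1972 and 1960.1 with c-Fos shRNA, against 1371 and 1377 with control shRNA (0.51 ± 0.07, limma adjusted p = 0.000205). Psph, the last enzyme of serine synthesis, measured 2109.7 and 2747 with c-Fos shRNA, against 1313 and 1612 with control shRNA (0.74 ± 0.15), Mthfd2, a mitochondrial folate enzyme, 1410.5 and 1739 with c-Fos shRNA, against 839 and 749.5 with control shRNA (0.99 ± 0.29), and the leucine transporter gene Slc7a5 3174 and 3627.5 with c-Fos shRNA, against 2171 and 2535 with control shRNA (0.54 ± 0.13). The arms of these genes were apart, by less than 2-fold. Slc38a2, a glutamine transporter gene, fell (-0.23), while a second probe set of it was called higher (0.38). The counts were 6 and 0 without c-Fos replicate 2, 4 and 0 without control replicate 1, and 14 and 0 when arrays were only scaled to a common median.

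**Figure D3:**
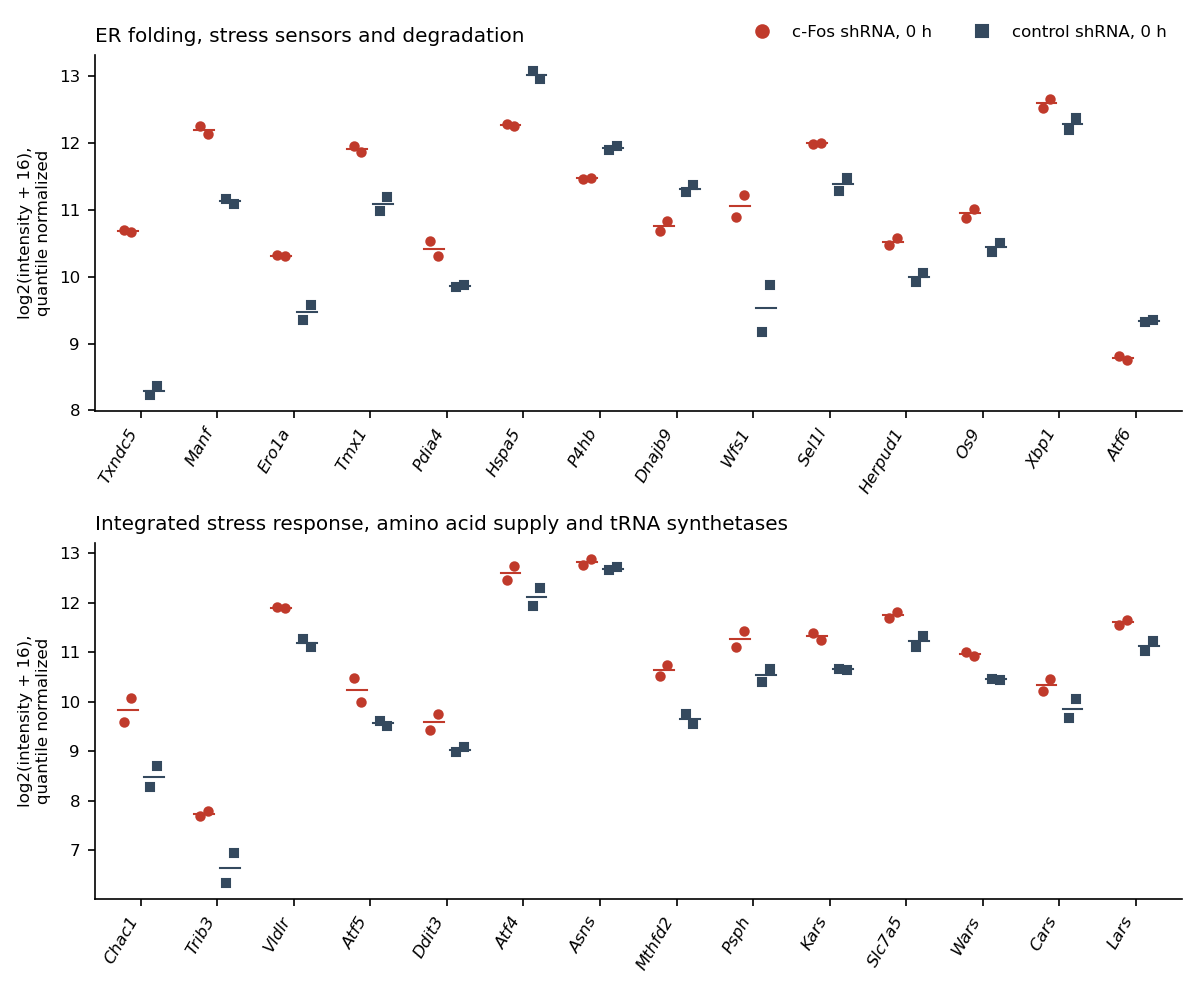
Members of the ER and integrated stress lists in silenced neurons, as log2(intensity + 16) after quantile normalization, with ER genes on top and stress response and amino acid genes below. Red circles are the 2 c-Fos shRNA arrays, dark squares the 2 control shRNA arrays, and lines the group means. The genes shown were picked from these lists and are mainly called members, so the picture does not give the balance of the lists. Among them the rises run from 0.32 (Xbp1) to 2.39 (Txndc5), whereas Hspa5, P4hb, Dnajb9 and Atf6 are lower, and Asns (0.14) was not called. In the full lists 17 of 27 ER chaperones and folding enzymes and 8 of 17 ER stress and degradation genes were not called. The same held for 13 of 19 integrated stress genes and 19 of 30 amino acid genes.

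Heat shock genes gave 3 rises and 3 falls among 18 (33.3% against the background of 22.3%), around a median of 0.0. Hspa4, a cytosolic nucleotide exchange factor of the family, measured 8930.2 and 9442 with c-Fos shRNA, against 5956 and 6439.6 with control shRNA (0.56 ± 0.07, limma adjusted p = 0.000187), and Dnajb1, a co-chaperone, 1671 and 1628 with c-Fos shRNA, against 2583 and 2268 with control shRNA (-0.55 ± 0.08). Hspa1a and Hspa1b encode near-identical proteins and were called in opposite directions (1.02 and -0.80), and 2 other probe sets of Hspa1b also fell (-0.77 and -0.81). Probes for near-identical copies can take up RNA of either, so both values are uncertain. Without control replicate 1 the counts were 2 and 1. In the list of prion and amyloid genes, 2 of 10 rose and 2 fell (40%, median 0.09). Bace1, the beta-secretase that starts amyloid production, measured 1381 and 1592 with c-Fos shRNA, against 3554 and 3216 with control shRNA (-1.20 ± 0.08, limma adjusted p = 9.34e-07), the opposite direction to Prnp, and 2 other probe sets of Bace1 fell while 1 was not called. Without c-Fos replicate 1 the list gave 1 rise and 1 fall.

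Lipid genes were also called about as often as all genes. Of 23 glycerolipid and phospholipid enzymes 4 rose and 2 fell (26.1% against the background of 22.3%, median 0.17), among them Lpcat1, which remodels phosphatidylcholine, at 2709 and 2932 with c-Fos shRNA, against 1226 and 1435 with control shRNA (1.10 ± 0.14), and Lpin2, a phosphatidate phosphatase, at 2520.3 and 3008 with c-Fos shRNA, against 1829 and 1857 with control shRNA (0.58 ± 0.09). Other probe sets of Lpin2 gave -0.38, 0.24 and 0.05 and were not called. For Lpcat1 some also rose (0.83 and 0.72) and some were not called (0.7 and 0.07). Of 20 cholesterol genes 3 rose and 2 fell (25%, median 0.08). Lss, which forms lanosterol, stood at 2285 and 3319 with c-Fos shRNA, against 932 and 1113 with control shRNA (1.44 ± 0.24), with 2 other probe sets at 0.08 and -0.26 that were not called, and Idi1, an earlier enzyme of the pathway, at 4017 and 4665 with c-Fos shRNA, against 6044 and 5857 with control shRNA (-0.47 ± 0.08). Opposite directions thus occurred within the one pathway. With the block 8 lipid enzymes rose and 5 fell, and 6 cholesterol genes rose and 6 fell, against 2 and 1 without c-Fos replicate 2. Among 19 genes of glycolysis and lactate 1 was called (median 0.01), the lactate transporter gene Slc16a1, lower at 716 and 825 with c-Fos shRNA, against 1353 and 1608 with control shRNA (-0.95 ± 0.09, limma adjusted p = 1.85e-05), and 5 rose and 3 fell with the block. Without c-Fos replicate 2 or without control replicate 2 1 gene of that list rose and 1 fell.

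Growth factor signalling genes were called about as often as all genes. Of 19 genes of the phosphoinositide 3-kinase pathway 4 rose and 1 fell (26.3% against the background of 22.3%, median 0.0). Beside Pik3r3, the catalytic subunit gene Pik3ca measured 2488 and 2515 with c-Fos shRNA, against 1188 and 1193 with control shRNA (1.06 ± 0.09, limma adjusted p = 1.06e-05), and 4 of 5 other probe sets of it also rose. Irs1, the insulin receptor substrate, fell (-0.58 ± 0.09). Of 23 receptor tyrosine kinases and ligands 4 rose and 2 fell (26.1%, median 0.11), with the neurotrophin receptor gene Ntrk2 at 7011.5 and 6895 with c-Fos shRNA, against 3854.5 and 4103 with control shRNA (0.80 ± 0.05, limma adjusted p = 5.26e-07), the hepatocyte growth factor receptor gene Met at 6359 and 6250.4 with c-Fos shRNA, against 3714 and 3727 with control shRNA (0.75 ± 0.06, limma adjusted p = 5.56e-06), and the insulin receptor gene Insr at 488 and 489.6 with c-Fos shRNA, against 982 and 878 with control shRNA (-0.93 ± 0.10, limma adjusted p = 3.35e-05). Replicates agreed closely in these genes and the arms were apart. The 6 other probe sets of Ntrk2 were not called (-0.33 to 0.70), nor was the other one of Insr (0.0). Without c-Fos replicate 1 or without control replicate 1 the kinase pathway gave 2 rises and 1 fall, and with the block the receptors gave 7 and 4.

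Because both arms carry a virus and a hairpin RNA, interferon genes and the small RNA machinery were read as well. Of 20 interferon response genes 2 rose and 2 fell (20%, median 0.02). B2m, the constant chain of MHC class I, measured 1979.7 and 1692 with c-Fos shRNA, against 774 and 742 with control shRNA (1.28 ± 0.12, limma adjusted p = 1.18e-05), whereas the heavy chain genes H2-K1 (-0.53 ± 0.15) and H2-D1 (-0.48 ± 0.11) fell. The interferon-induced genes Ifit3, Rsad2 and Oasl2 were dim in both arms, with Ifit3 at 72.8 and 76.4 with c-Fos shRNA, against 76.6 and 87.3 with control shRNA, and were not called (-0.08, 0.01 and 0.28). The counts were 1 and 0 without c-Fos replicate 1 or without control replicate 1, and 1 and 1 without c-Fos replicate 2. Of 14 genes that process or use small RNAs 3 rose and 0 fell (21.4%, median 0.17). Ran, the small GTPase that powers export of RNA from the nucleus, had intensities of 11683 and 11656 with c-Fos shRNA, against 4291 and 4144 with control shRNA (1.46 ± 0.05, limma adjusted p = 2.24e-08), and 5 other probe sets of Ran rose by 1.36 to 1.58. The nuclease gene Dicer1 (-0.13) and the hairpin exporter gene Xpo5 (0.36) were not called. With the block 6 of the 14 rose, and without c-Fos replicate 2 there was 1 rise.

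Genes of p53 and of cell death were called in both directions. Of 16 p53 targets 5 rose and 3 fell (50% against the background of 22.3%, median 0.14). Ei24, an ER protein gene, measured 5068 and 4938 with c-Fos shRNA, against 2132 and 2357 with control shRNA (1.16 ± 0.08, limma adjusted p = 1.79e-06), Cdkn1a, the cell cycle inhibitor p21, 1631 and 1594 with c-Fos shRNA, against 1171 and 1028 with control shRNA (0.55 ± 0.09), and Ccng1, cyclin G1, 2897 and 2787 with c-Fos shRNA, against 4859 and 4724 with control shRNA (-0.76 ± 0.08, limma adjusted p = 3.57e-05). Of 14 Bcl2 family genes 3 rose and 2 fell (35.7%, median 0.17), with the death-promoting Bcl2l11 (BIM) at 333 and 389 with c-Fos shRNA, against 949 and 709 with control shRNA (-1.17 ± 0.24) and Bbc3 (PUMA) at 580.1 and 615.5 with c-Fos shRNA, against 396 and 416 with control shRNA (0.55 ± 0.10). The pair was thus split, BIM lower and PUMA higher. Leaving out c-Fos replicate 1 or control replicate 2 gave 4 rises and 1 fall of p53 targets. The Bcl2 family gave 1 and 1 without c-Fos replicate 1, and 2 and 1 with either control replicate left out.

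Housekeeping complexes differed by small amounts. Of 76 mitochondrial ribosomal proteins 3 rose and 13 fell, with a median of -0.06, and Mrpl18 at 908 and 875 with c-Fos shRNA, against 2504 and 2246 with control shRNA (-1.42 ± 0.09, limma adjusted p = 1.35e-06) and Mrpl55 at 415 and 507 with c-Fos shRNA, against 1001 and 1048 with control shRNA (-1.16 ± 0.17) lay below the other 11 falls, which ran from -0.81 to -0.19. Of 78 nuclear-encoded respiratory chain subunits 3 rose and 11 fell (median -0.02), and of 43 proteasome subunits 2 rose and 9 fell (median -0.05), with the largest proteasome fall in Psmb2 (-0.42 ± 0.07). Of 46 cytosolic ribosomal proteins 7 rose and 1 fell (median 0.05), that being Rpl22l1, a paralog of Rpl22, at 5026 and 4977 with c-Fos shRNA, against 9047 and 9049.9 with control shRNA (-0.86 ± 0.06, limma adjusted p = 1.57e-06). Rpl22 itself measured 11392.5 and 11426.5 with c-Fos shRNA, against 9438.5 and 10067 with control shRNA (0.21 ± 0.04). The shares called, 17.4% to 25.6%, lay around the background of 22.3%. With the block the mitochondrial ribosome held 9 rises and 23 falls, the respiratory chain 11 and 17, the proteasome 6 and 15 and the cytosolic ribosome 12 and 2. Without control replicate 1 the mitochondrial ribosome held 2 and 7 and the proteasome 0 and 3, and the proteasome held 2 and 5 without c-Fos replicate 1 and 0 and 5 without c-Fos replicate 2. With arrays only scaled to a common median the mitochondrial ribosome held 5 rises and 11 falls, the respiratory chain 7 and 10, and the proteasome 4 and 6. Mrpl35, one of the falls, had another probe set that was called higher (0.95).

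**Figure D4:**
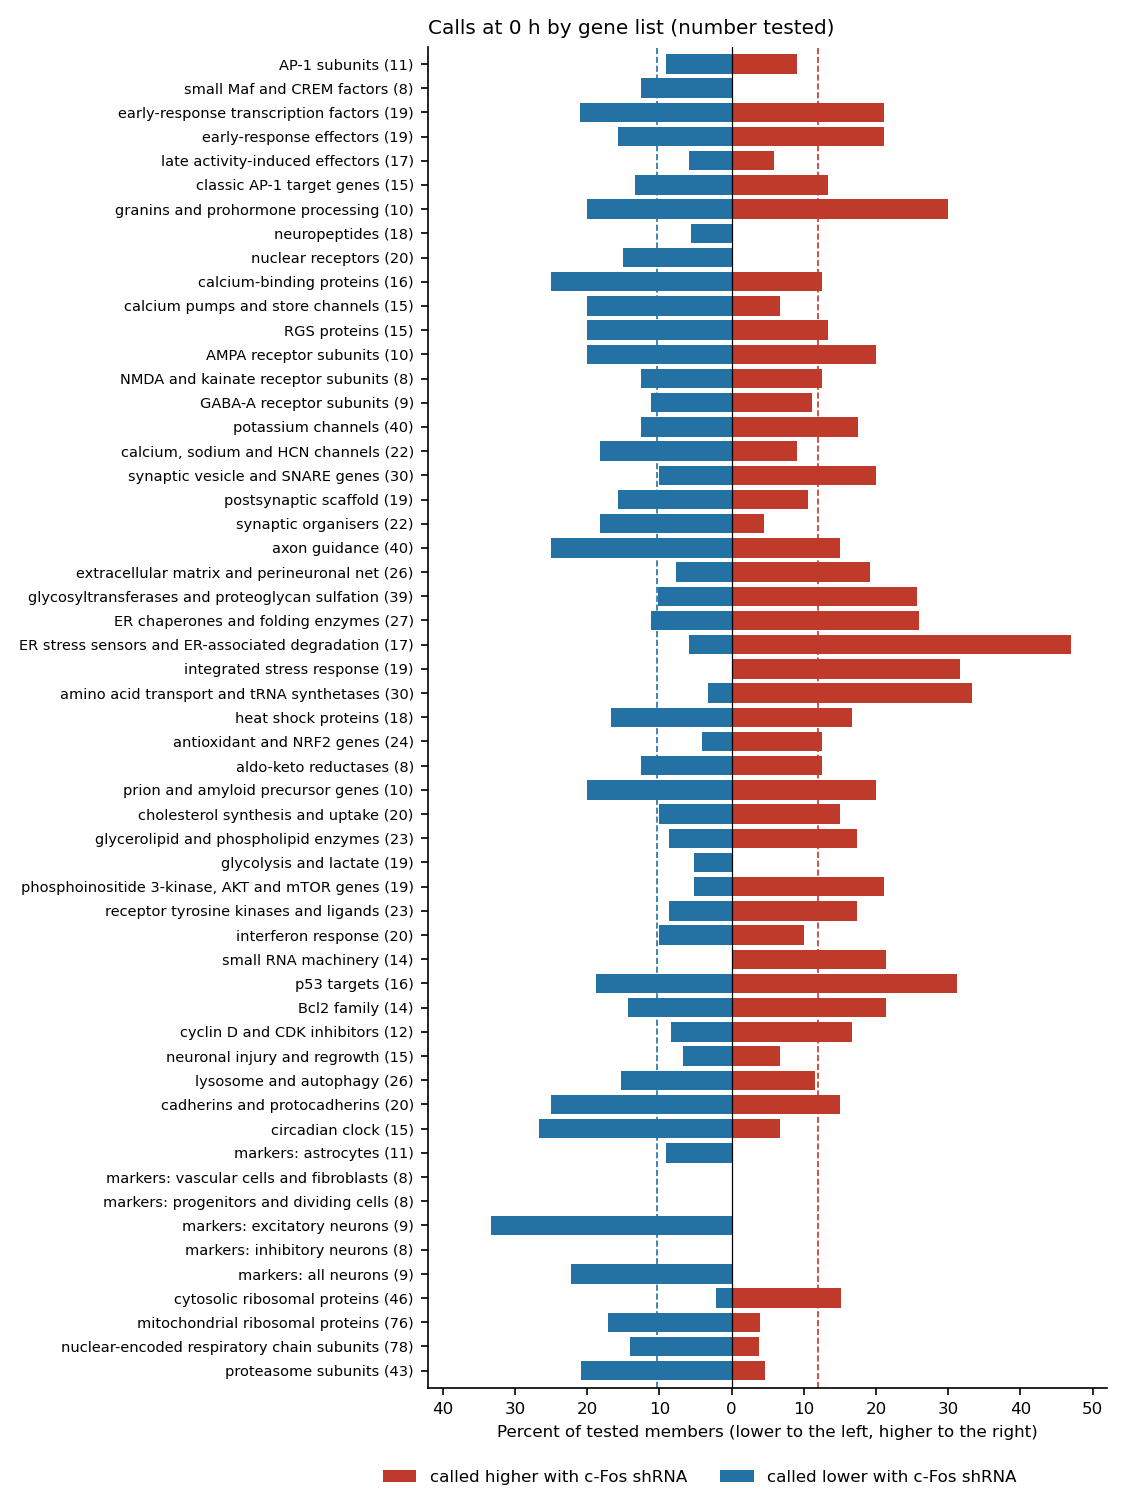
Share of the tested members of each gene list called higher (red, to the right) or lower (blue, to the left) with c-Fos shRNA in silenced neurons, for lists with 8 or more tested members, whose number is in brackets. Dashed lines mark the shares over all 13915 genes, 12% higher and 10.3% lower. The ER stress sensor, integrated stress and amino acid lists reach furthest to the right relative to their left side, and vascular, progenitor and inhibitory neuron markers have no called member.

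Cell type markers were compared to see whether the composition of the cultures differed. Of 9 excitatory neuron markers 3 fell and 0 rose, with a median of -0.12. Neurod2, a factor gene of excitatory cortical neurons, measured 3498 and 3137 with c-Fos shRNA, against 6361 and 6174 with control shRNA (-0.92 ± 0.09, limma adjusted p = 1.76e-05), and Tbr1, a deep layer factor gene, 1979.7 and 2117 with c-Fos shRNA, against 2939 and 2789 with control shRNA (-0.49 ± 0.11). Neurod6, another marker of the same neurons, measured 7305 and 7381 with c-Fos shRNA, against 7721 and 7267.5 with control shRNA and was not called (-0.04). Of 9 genes of all neurons 2 fell, Rbfox3, which encodes the antigen NeuN, at 3590 and 4666.5 with c-Fos shRNA, against 6491 and 6963 with control shRNA (-0.74 ± 0.12, limma adjusted p = 0.000821), and Nefm, a neurofilament gene (-0.39 ± 0.10), while Tubb3, Map2, Snap25, Syt1, Stmn2, Nefl and Elavl4 were not called. Summed over the list, the intensity of excitatory markers was 25361 and 25131 with c-Fos shRNA, against 31661 and 29701 with control shRNA, and that of all neurons 73955 and 77672 with c-Fos shRNA, against 79503 and 82728 with control shRNA. Inhibitory neuron markers gave 0 calls among 8 and sums of 15572 and 16014 with c-Fos shRNA, against 17206 and 16641 with control shRNA. Without control replicate 1 the falls were 1 of 9 excitatory markers and 1 of 9 genes of all neurons, and without c-Fos replicate 2 they were again 1 of 9 for all neurons. With the block 1 excitatory marker rose and 4 fell, and Elavl4, a neuronal RNA-binding protein gene at 5017 and 4487 with c-Fos shRNA, against 6418.5 and 6156.5 with control shRNA (-0.42), gave limma adjusted p = 0.000881 against 0.0677 without it.

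Markers of other cells differed more between replicates than between arms. Of 11 astrocyte markers Slc1a3, a glutamate transporter gene, fell (-0.23 ± 0.06), and the list summed to 33859 and 39561 with c-Fos shRNA, against 35825 and 42824 with control shRNA. That call was lost without c-Fos replicate 1 and with either control replicate left out, and with the block 1 astrocyte marker rose and 3 fell. Of 7 tested oligodendrocyte lineage markers 0 were called, and the 9 on the array summed to 14092 and 17766 with c-Fos shRNA, against 11900 and 19002 with control shRNA. The progenitor receptor gene Pdgfra shows the pattern, at 2755 and 4704 with c-Fos shRNA, against 2025 and 5496 with control shRNA. Vascular and fibroblast markers (0 of 8 tested called, 12 on the array) summed to 1590 and 2597 with c-Fos shRNA, against 1547 and 2484 with control shRNA, with Dcn, the fibroblast proteoglycan decorin, at 265.5 and 1063 with c-Fos shRNA, against 276 and 790.5 with control shRNA. Replicate 2 was thus the higher one in both arms for these lists. The 11 microglial markers on the array, 3 of them bright enough to test, summed to 465 and 449 with c-Fos shRNA, against 444 and 497 with control shRNA, and dividing cell and progenitor markers (0 of 8) to 11427 and 12970 with c-Fos shRNA, against 10822 and 12438 with control shRNA. Whether cell composition has a part in the differences above was not tested.

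Most of the differences before KCl were called again in depolarised cultures of the same arms, which are other arrays that share the normalization and the estimate of spread. Same-numbered arrays of different groups deviated together, with correlations of 0.36 to 0.60. The KCl cultures are thus not shown to be independent of those at 0 h. At 1, 3 and 6 h 2890 (20.8%), 3241 (23.3%) and 3312 (23.8%) genes were called. Of the 1675 genes higher at 0 h, 1236, 1203 and 1097 were higher at 1, 3 and 6 h too, and of the 1428 lower genes 1051, 971 and 818 were lower. No other time called 222 of the higher and 210 of the lower genes, and 28 and 9 were called in the opposite direction at some time. The 15 largest rises and 15 largest falls were all called in their direction at each KCl time. In Prnp the differences were 3.11 at 1 h, 3.01 at 3 h and 2.48 at 6 h. Akr1c18 gave -3.18 at 1 h, -2.80 at 3 h and -2.07 at 6 h.

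In the fit without the replicate block, a small set was called for a difference at rest that differed from that during KCl. The test set the 0 h difference against the mean of the differences at 1, 3 and 6 h, and it called 45 genes (0.323%), 35 with the signed 0 h difference greater (0.252%) and 10 with it lower (0.0719%). This is the same contrast, with its sign turned, as an average response to KCl that differs between the arms, so it does not say at which time a gene departs. Of the 35, 23 were higher at 0 h, 9 were not called there and 3 were lower, and in 25 of them the mean of the KCl times was below 0. Of the 10, 9 were lower at 0 h. With the replicate block the test called 566 genes, so a gene outside the 45 is not shown to differ equally at rest and during KCl. Leaving out an array gave 11 without c-Fos replicate 1, 16 without c-Fos replicate 2, 11 without control replicate 1 and 27 without control replicate 2.

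Vgf had the largest contrast. It was higher by 1.76 ± 0.06 at 0 h, while the later differences were 0.15 at 1 h, 0.06 at 3 h and -0.10 at 6 h, a contrast of 1.72 ± 0.07 (limma adjusted p = 1.99e-07), which was called under all 13 alternatives. Cav1 had a like contrast, 1.15 ± 0.18 (limma adjusted p = 0.0216), with 1.63 at rest, then 1.43 at 1 h, 0.26 at 3 h and -0.24 at 6 h. Egr3 was higher at rest (0.88) and gave -0.29 at 1 h, -0.48 at 3 h and -0.95 at 6 h, a contrast of 1.45 ± 0.20. Atf3, a stress-induced factor gene, was dim at 71.2 and 43.7 with c-Fos shRNA, against 29.7 and 41.1 with control shRNA, a difference of 0.51 that was not called (limma adjusted p = 0.0786, and 0.0276 with the block). Its contrast of 1.32 ± 0.22 came with negative differences during KCl (-0.04 at 1 h, -1.16 at 3 h and -1.24 at 6 h). C2cd4b overlapped at rest, at 78.3 and 104 with c-Fos shRNA, against 88.9 and 104 with control shRNA, and its contrast was 1.48 ± 0.20. Htra4, a dim protease gene, had a contrast of 1.27 ± 0.23. Fos belongs to the 35 as well, since its fall at rest (-0.77) was smaller than the mean of its falls during KCl (-0.75 at 1 h, -1.74 at 3 h and -1.85 at 6 h). The MAP kinase phosphatase genes Dusp6 (0.81 ± 0.11) and Dusp4 (0.71 ± 0.12) were higher at rest. So were the growth factor gene Pdgfc (0.87 ± 0.11), the potassium channel gene Kcnf1 (0.76 ± 0.09) and Cdkn1a (0.71 ± 0.11). Among these genes the mean difference over the KCl times was -0.27 to 0.03. That mean hides a change of sign in Pdgfc and Cdkn1a. Pdgfc, at 0.90 before KCl, was still 0.72 after 1 h, then turned negative (-0.46 after 3 h, -0.17 after 6 h). Cdkn1a, at 0.55 before KCl, kept 0.29 after 1 h, followed by -0.33 and -0.43. Dusp6, Dusp4 and Kcnf1 were already below 0 after 1 h (-0.29, -0.14 and -0.24).

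The 10 genes whose signed difference at rest was the lower one were led by Calb1 and by Tgoln1, a cargo protein gene of the trans-Golgi network. Calb1 fell by more at rest than later, its later differences being -1.99 at 1 h, -1.55 at 3 h and -1.65 at 6 h (contrast -0.96 ± 0.13, limma adjusted p = 0.0101). Tgoln1 measured 966 and 1085 with c-Fos shRNA, against 3041 and 3197 with control shRNA (-1.62 ± 0.08, limma adjusted p = 2.03e-07) and had a contrast of -0.83 ± 0.09. Ppil4, a nuclear peptidyl-prolyl isomerase gene, measured 1027 and 1072.5 with c-Fos shRNA, against 2486 and 2426 with control shRNA (-1.23 ± 0.07, contrast -0.55 ± 0.08), and Pafah1b2 had a contrast of -0.52 ± 0.09. These 4 fell at 0 h and less on average later. Fbxo28, a ubiquitin ligase subunit gene, gave -0.57 ± 0.08, and Pramel12 -0.62 ± 0.11 with a difference at rest of -0.08 that was not called. Other probe sets were not called at rest for Tgoln1 (-0.08 and 0.13, beside a fall of 0.62), Fbxo28 (-0.16 and -0.14) and Pramel12 (-0.06 and 0.08).

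**Figure D5:**
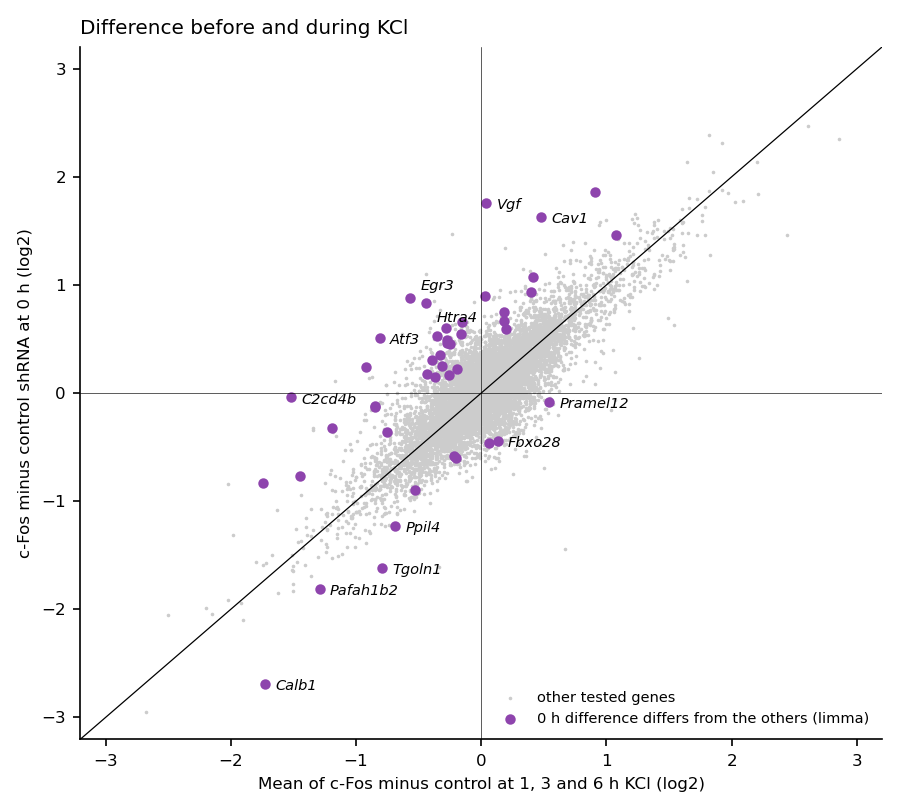
The c-Fos minus control difference at 0 h (y axis, log2) against the mean of the same difference at 1, 3 and 6 h of KCl (x axis, log2), one point per tested gene. Purple marks the 45 genes whose 0 h difference differs from that mean in limma, and the diagonal is equality. Most genes follow the diagonal, Vgf lies near 0 on the x axis and at 1.76 on the y axis, and Calb1 lies below the diagonal at -2.69 on the y axis.

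Beyond the genes described one by one, the 296 called members of all lists can be set against their other probe sets. Another tested probe set existed for 190 of these genes. It was called in the same direction in 94 genes, at least 1 other probe set was not called in 147, and 4 genes, Derl1, Kcnc1, Mrpl35 and Slc38a2, had one called in the opposite direction. No other probe set was called for Plat (-0.19), Chst15 (0.19), Kcnq5 (-0.37 and -0.18), Slc16a1 (-0.08, dim), Kcnf1 (-0.02) or Sik1 (-0.1). The same held for Sema3e (0.91 and 0.55), Emp1 (-0.31), St8sia2 (-1.04), Idi1 (-0.41), Met (0.76), Gadd45b (-0.63 and -0.38), H2-K1 (-0.14 and -0.24) and Slc1a3 (-0.56 to -0.09).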

How the data were processed

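Per the labels' protocols, RNA was read on single-colour Affymetrix arrays, and the authors deposited 1 linear intensity for each probe set on each array. How the authors summarised and scaled the intensity values is not stated in these sources. From these intensities, log2(intensity + 16) was quantile normalized over 16 arrays. Of 45101 probe sets 64 were controls, 34945 had 1 gene in GEO's platform annotation, 932 had more than 1, and 9160 had no gene named there. A gene (18193 in all) took its probe set with the highest mean, and genes above the 30th percentile (5.786 on the log2 scale) were tested. limma 3.58.1 in R 4.3.3 fitted 8 group means over all 16 arrays, 8 residual degrees of freedom, with lmFit and an intensity trend in eBayes, and adjusted p-values by Benjamini-Hochberg over 13915 genes. The fit was tested on simulated data that held no replicate effect, so that test does not cover arrays paired by number. Replicate numbers come from the labels. Deviations of same-numbered arrays correlated in all 28 pairs of groups (0.36 to 0.60), so numbers were taken to pair arrays, and block values are given where they move a result. The named genes were Fos, the 15 largest called rises and falls with separated arms, the 6 largest each way of the contrast with the KCl times, and up to 5 called members a list and direction. Members, the 59 gene lists and the rules were chosen with earlier results of these data known. Promoters came from RefSeq, build GRCm38.p6.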

Additional observations from a re-analysis of the deposited data

Results flagged for a closer look

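The arms were set against each other at rest and during KCl by 1 test of the difference itself, and 45 genes passed it. The named ones follow, each as the 0 h difference minus the mean difference at 1, 3 and 6 h on the log2 scale. The 0 h difference was the greater one for Vgf (1.72), C2cd4b (1.48), Egr3 (1.45), Atf3 (1.32), Htra4 (1.27) and Cav1 (1.15). With its sign kept, it was the lower one for Calb1 (-0.96), Tgoln1 (-0.83), Pramel12 (-0.62), Fbxo28 (-0.57), Ppil4 (-0.55) and Pafah1b2 (-0.52). Of the 45, 15 were called at rest with a sign opposite to the mean of the KCl times. A further 17 called at rest had the same sign and were larger in absolute size at rest, and 3 had the same sign and were smaller in absolute size. Groups of 2 arrays are too small for the test for single outlying arrays.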

How the results depend on the processing

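The count at rest of 3103 genes stayed within 1.5 times in the settings other than the block and 2 of those that leave out an array. With the replicate block it was 5396, and leaving out 1 array gave 1867 to 2492. The 1675 higher and 1428 lower genes were all shared with the block's calls. With each array shifted to one median 63.1% of calls were higher, against 54% in the reported fit, and the median difference of all genes was 0.053 against 0.018. The 45 genes that differ from the KCl times became 28 without further normalization, 25 without the intensity trend, 566 with the block (all 45 shared), and 11 to 27 with 1 array left out. Fos stayed called, from -0.89 to -0.62, and from -0.89 to -0.66 with 1 array left out. Of the 30 genes named at rest 29 kept their call in all 14 settings, Capsl being the exception. Of the 12 named against the KCl times only Vgf kept its call in all 13, and 0 of the named genes reversed. With probe sets averaged the contrast of Egr3 was 0.29, of Calb1 -0.21 and of Tgoln1 -0.32, all past the threshold no longer. List counts moved by over 1.5 times in 164 of 826 combinations of list and setting. The arrays' number, 2 a group, limits the precision, and dim genes such as Capsl, Atf3 and Htra4 are near the floor, where log2 differences are understated.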

Other observations

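Calcium handling and G protein signalling genes beside Calb1, Rgs17 and Rgs8 were called in both directions. The shares called were 37.5% for calcium-binding proteins, 26.7% for pumps and store channels and 33.3% for RGS genes, against the background of 22.3%. Of 16 calcium-binding protein genes 2 rose and 4 fell, with a median difference of -0.09. The neuronal calcium sensors Necab1, at 2737 and 3339 with c-Fos shRNA, against 1491 and 2158 with control shRNA (0.76 ± 0.23), and Ncald, at 5327 and 6019 with c-Fos shRNA, against 3658 and 4551.5 with control shRNA (0.46 ± 0.14), rose, whereas the reticulocalbin genes Rcn1 (-0.56 ± 0.14) and Rcn2 (-0.36 ± 0.08), whose products bind calcium in the secretory pathway, fell. The counts were 0 and 3 without c-Fos replicate 1, without c-Fos replicate 2 or without control replicate 1, and 2 and 1 without control replicate 2. Of 15 calcium pump and store channel genes 1 rose and 3 fell, with the ryanodine receptor gene Ryr2 at 774 and 996 with c-Fos shRNA, against 1311 and 1149.6 with control shRNA (-0.50 ± 0.11). They gave 0 and 2 with either c-Fos replicate left out, 0 and 1 without control replicate 1, 3 and 6 with the block, and, the other way round, 2 and 0 with probe sets averaged. Of 15 RGS genes 2 rose and 3 fell, and Rgs6, at 358 and 303 with c-Fos shRNA, against 197 and 157 with control shRNA (0.87 ± 0.18), went against Rgs17 and Rgs8. Those counts were 0 and 3 without c-Fos replicate 1, 1 and 2 without c-Fos replicate 2 or without control replicate 2, and 4 and 3 with the block.

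Cadherins and protocadherins, adhesion molecules that sort neurons and their contacts, gave 3 rises and 5 falls among 20, with a median of 0.0. The share called was 40%, against the background of 22.3%. Cdh7 stood at 181 and 209 with c-Fos shRNA, against 89.2 and 99.1 with control shRNA (0.96 ± 0.17), Cdh4 at 2996 and 2915 with c-Fos shRNA, against 5497 and 4644.5 with control shRNA (-0.77 ± 0.15) and Cdh22 at 325 and 375 with c-Fos shRNA, against 569 and 654 with control shRNA (-0.77 ± 0.15). Leaving out c-Fos replicate 1 or either control replicate gave 2 and 3. Of 9 GABA-A receptor subunits Gabrg1 rose (0.75 ± 0.20) and Gabra4 fell (-0.36 ± 0.08), and of 8 NMDA and kainate receptor subunits Grik1 rose (0.61 ± 0.18) and Grik3 fell (-0.54 ± 0.17). The shares called, 22.2% and 25%, were near the background. Leaving out 1 array left 0 or 1 of these kainate receptor calls. The GABA-A list gave 1 and 0 without c-Fos replicate 1, 0 and 1 without c-Fos replicate 2 or without control replicate 1, and 3 and 2 with the block.

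Further lists had shares called of 26.9% for lysosome and autophagy, 16.7% for antioxidant, 25% for aldo-keto reductase and 25% for D cyclin genes. Injury genes gave 13.3% and small Maf and CREM factors 12.5%, against the background of 22.3%. Of 26 lysosome and autophagy genes 3 rose and 4 fell, with the lysosomal membrane gene Lamp2 at 3772 and 3922 with c-Fos shRNA, against 1964 and 2662 with control shRNA (0.74 ± 0.15) and the autophagy gene Atg5 at 798 and 758 with c-Fos shRNA, against 1105.5 and 1071 with control shRNA (-0.51 ± 0.12). The counts were 1 and 3 without c-Fos replicate 1, 0 and 2 without control replicate 1, 3 and 2 without c-Fos replicate 2 or without control replicate 2, 7 and 7 with the block, and 4 and 3 with arrays only scaled to a common median. Of 24 antioxidant genes 3 rose and 1 fell, that being Sod2, the mitochondrial superoxide dismutase gene (-0.53 ± 0.07). Leaving out either c-Fos replicate or control replicate 1 gave 1 and 1, the block 7 and 7, and a fit of only the 4 arrays without KCl 2 and 3. Of 8 aldo-keto reductases Akr1c19 rose (0.66 ± 0.22) beside the fall of its neighbour in the family Akr1c18, and the rise was lost with either c-Fos replicate left out and without control replicate 1. Of 12 D cyclin and inhibitor genes 2 rose and 1 fell, 3 and 3 with the block and 3 and 2 without control replicate 2. Of 15 injury and regrowth genes Klf7 rose (0.40 ± 0.08) and Klf6 fell (-0.57 ± 0.09), and the block gave 3 and 4. Of 8 small Maf and CREM factors Mafg, a partner of several bZIP proteins, fell (-0.28 ± 0.08), a call that was lost with either c-Fos replicate left out and without control replicate 1. Some other probe sets of Lamp2 were not called (-0.11 and -0.1), while another rose (0.75). For Sod2 some were not called (0.07 and 0.12), while another fell (-0.42). None was called for Klf7 (0.24, 0.33 and -0.06), Mafg (0.0), Necab1 (0.37), Rcn2 (0.05), Gabra4 (-0.42) or Grik1 (0.59). For Klf6 some fell (-0.93 and -0.66) and some were not called (-0.84 and -0.22). Markers of Cajal-Retzius cells (5 tested) and sex-linked transcripts (4 tested) gave 0 calls in limma, and 1 each with the block.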
